A study of Rattus norvegicus with 8 samples.

Results

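DOCA-salt treatment of the rat, in which removal of 1 kidney is followed by a mineralocorticoid and extra dietary sodium, was compared here with a standard diet by its microRNA (miRNA) profile in the renal cortex. All 8 arrays of the series were used, 4 on each side. The DOCA-salt side held the groups DOCA and DOCA-EVs (2 arrays each), and the standard-diet side held SHAM and UNX (2 arrays each), as named by the sample titles. DOCA rats had undergone nephrectomy, ate chow with 1.5% sodium by weight, and were injected under the skin with deoxycorticosterone acetate in soybean oil at 8 mg/kg, 2 times a week, and weekly into a vein with vehicle from week 2. DOCA-EVs rats had the same surgery, diet and steroid, with weekly intravenous extracellular vesicles (ASC-EVs in the labels) in place of the vehicle from week 2. SHAM rats were sham-operated and kept on the standard sodium diet. UNX rats had undergone nephrectomy, ate chow with 0.50% sodium and received 0.1 ml of soybean oil under the skin. All rats were male and the cortex was taken at week 9, with 100 ng of RNA per array. Both DOCA-salt groups were nephrectomised, whereas the standard-diet side mixes operated and sham-operated rats. Comparisons with UNX alone are therefore given further on, though not for every miRNA or list. The labels do not state that 2 replicates came from separate rats, and p-values measure the spread between arrays, which may be technical.

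The members were all miRNAs that the scanner software detected on both arrays of at least 1 group. There were 242 of these among the 758 rat miRNAs on the array (31.9%), and 192 of them were detected on all 8 arrays. Of the 516 not tested, 473 were detected on no array and 43 on 1 to 4 arrays. Detection itself differed between the sides. Of the 242, 210 were detected on both arrays of a group on each side, 9 in DOCA-salt groups alone and 23 in standard-diet groups alone. A hybridisation control was weak on DOCA replicate 2 and DOCA-EVs replicate 2, as given further on, and on no standard-diet array. The part of these weak arrays in the detection counts was not tested. miR-132-3p, miR-222-3p and miR-146b-5p were tested only through DOCA-salt groups and miR-375-3p only through standard-diet groups. For a miRNA tested only through the side where it is high, this filter favours a difference, so the calls of these 4 are given as a description.

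A mature miRNA is a short RNA cut from 1 arm of a hairpin. It guides Argonaute proteins to messenger RNAs, mainly through its bases 2 to 8 (the seed), and lowers their stability and translation. In the kidney, miR-192 and miR-194 are known as epithelial miRNAs, miR-21 and miR-132 have been studied in fibrosis, and miR-155 and the miR-146 pair are known from innate immune signalling. Deoxycorticosterone is a ligand of the mineralocorticoid receptor, which raises sodium retention in the distal nephron, and the model is used for salt-dependent hypertension and kidney injury.

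The mature sequences of the miRNAs that most of the results turn on are shown 5′ to 3′ with the seed in capitals, from RefSeq on GRCr8. Such a sequence was found for 218 of the 242 tested miRNAs and for 15 of the 16 that passed the threshold given further on. The first set had higher levels in DOCA-salt and is shown with tested miRNAs of the same seed, since pairs with 1 seed share predicted targets.
miR-221-3p: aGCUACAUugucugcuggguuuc
miR-222-3p: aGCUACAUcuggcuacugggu
miR-132-3p: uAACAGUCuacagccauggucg
miR-212-3p: uAACAGUCuccagucacggcca
miR-146b-5p: uGAGAACUgaauuccauaggcugu
miR-146a-5p: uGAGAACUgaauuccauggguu
miR-34a-5p: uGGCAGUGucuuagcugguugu
miR-34b-5p: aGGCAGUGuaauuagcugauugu
miR-155-5p: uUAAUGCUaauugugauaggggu
miR-3584-5p: gGGAGGAGuccaggaggc

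The second set had lower levels in DOCA-salt. Its members come from the miR-192 hairpin and a neighbouring miR-194 gene on chromosome 1, and miR-194-5p also from a gene on chromosome 13.
miR-192-5p: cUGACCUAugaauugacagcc
miR-192-3p: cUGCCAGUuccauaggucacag
miR-194-5p: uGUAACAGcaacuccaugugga

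Levels are log2 normalized signal per miRNA, scaled to the 75th percentile of 271 probes above background on all arrays. Levels of different miRNAs are not compared, since each probe has its own response. A log2 fold change is the mean of the DOCA and DOCA-EVs means minus the mean of the SHAM and UNX means, fitted with limma and given ± SE. A miRNA passed the threshold at an adjusted p under 0.05, with Benjamini-Hochberg adjustment over all 242. Where arrays of the dimmer side were not above background, they were set to the dimmest level above background on that array. Their own level was kept where that was higher. The fold is then a bound ("at least") if all arrays of the brighter side were above background. Otherwise the arrays of the brighter side kept their own level, and the value is given as a "reduced fold", which is no bound.

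The software detected 208 (DOCA replicate 2) to 264 (DOCA-EVs replicate 1) miRNAs per array. A hybridisation control (dmr_3) was weak on DOCA replicate 2 and DOCA-EVs replicate 2, at 1028 and 1136, against 2200 to 2401 on the 6 other arrays. The median absolute difference between replicates over the tested miRNAs was 0.25 log2 in DOCA and 0.37 in DOCA-EVs, against 0.063 in SHAM and 0.18 in UNX. The fit shares 1 spread among the 4 groups, although these differ, so the small spread of SHAM enters every p-value. On the 1 slide, each of the 4 groups fills a column and each replicate number a row, so column and group cannot be told apart. All 7 kidney tubule markers were above background on all 8 arrays, while miR-122-5p of liver and the 3 nerve markers were above background on none. The summed signal of 4 erythrocyte markers, 1 of them above background on all arrays and miR-144-5p and miR-486 on none, ran from 122 to 440 in DOCA-salt and from 248 to 336 on standard diet. Among these, the signal of miR-451-5p was 384 on DOCA replicate 1 and 107 to 136 on the other 3 DOCA-salt arrays, against 222 to 305 on standard diet. The part of erythrocytes in the results was not tested.

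In DOCA-salt cortex 11 miRNAs were higher and 5 were lower than on standard diet. The higher ones were miR-155-5p, miR-132-3p, miR-221-3p, miR-34a-5p, miR-222-3p, miR-188-5p, miR-146b-5p, miR-3584-5p, miR-200c-3p, miR-21-3p and miR-1949. The lower ones were miR-375-3p, miR-192-5p, miR-192-3p, miR-194-5p and miR-30e-3p. These 16 calls are 6.61% of the tested miRNAs, with 4.55% higher and 2.07% lower. In place of 11 higher and 5 lower, scaling to the 75th percentile over all probes gave 6 and 1, and the software's total signal gave 4 and 8. Scaling to the median of detected probes gave 7 and 11, and so did normexp with quantile normalization. At an unadjusted p under 0.05 there were 40 higher and 18 lower. The median log2 fold change of all tested miRNAs was -0.01, with 118 positive and 124 negative values, and the median 95% interval reached 0.34 to either side. Over all 242, the 4 DOCA-salt arrays lay wholly above the 4 standard-diet arrays for 25 (10.3%) and wholly below for 10 (4.13%), together 14.5%. Of the 16 called miRNAs 11 did not overlap, 7 higher and 4 lower. The 16 were chosen for a difference between these same sides, so this count is a description. Among the 7, miR-132-3p, miR-222-3p and miR-146b-5p were tested through DOCA-salt detection alone.

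**Figure D1:**
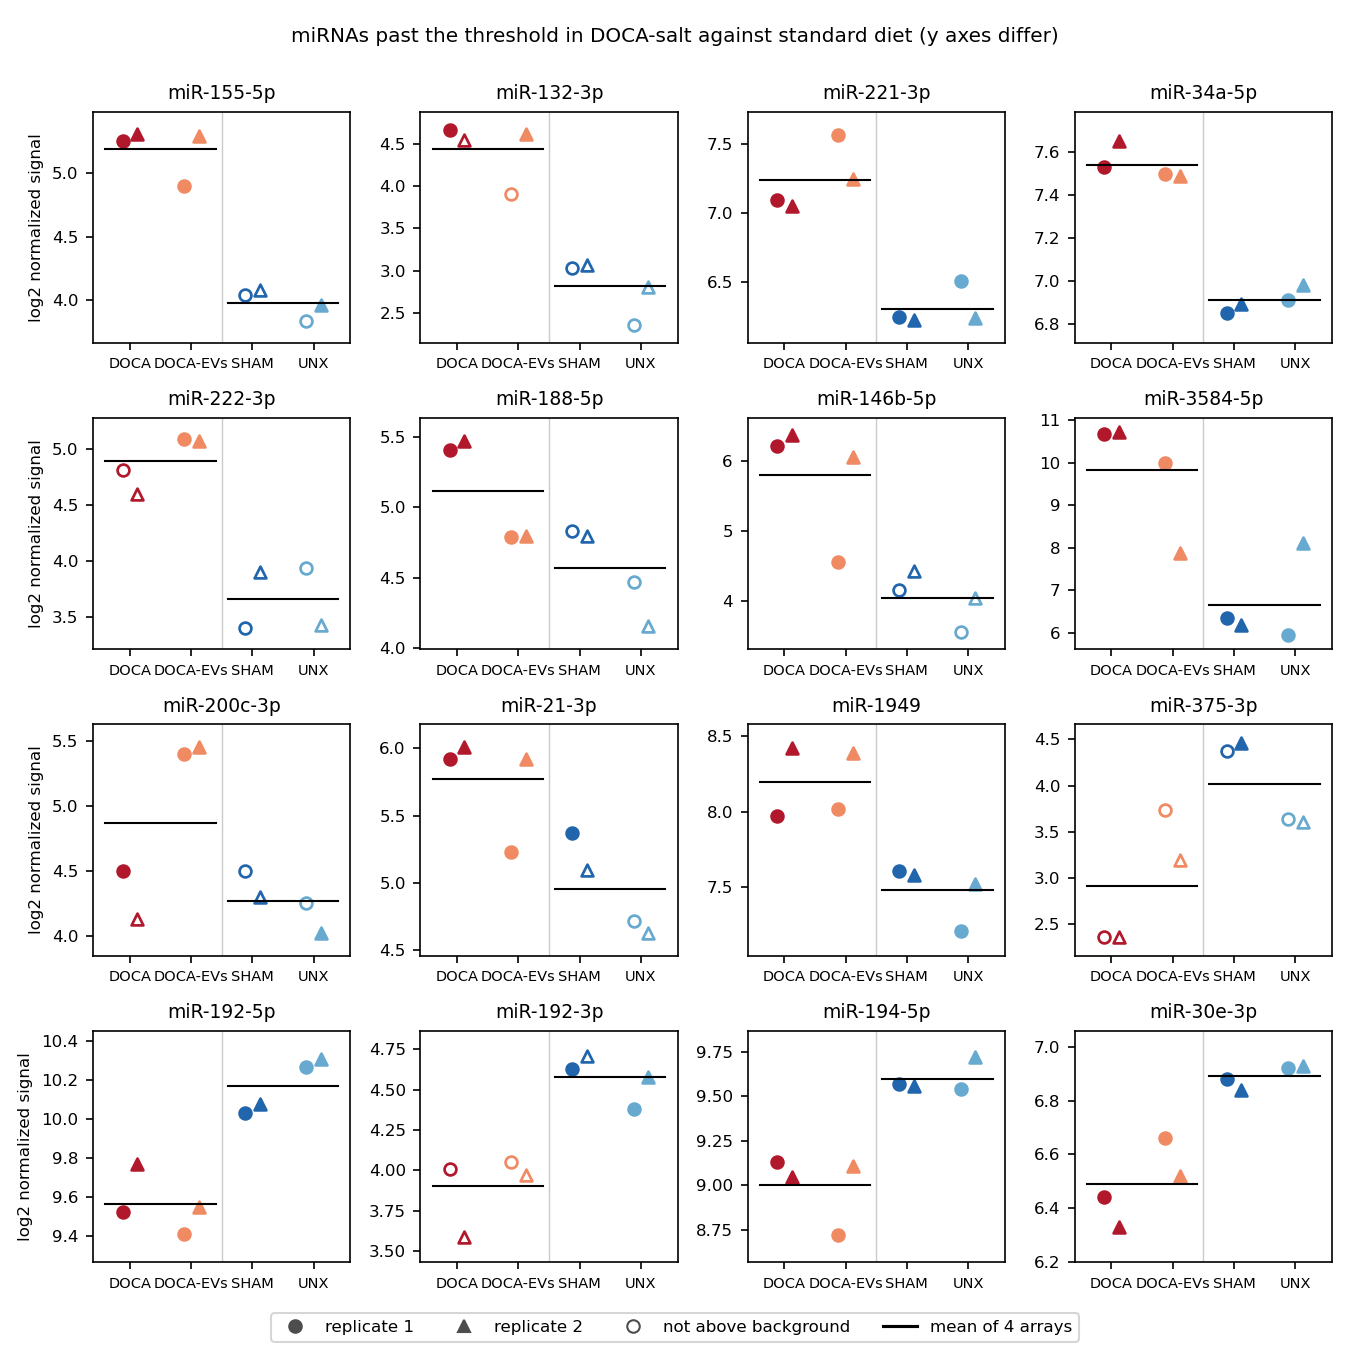
Level (log2 normalized signal) of each of the 16 called miRNAs on the 8 arrays, with DOCA and DOCA-EVs on the left and SHAM and UNX on the right of each panel. Circles and triangles are replicates 1 and 2, open symbols are arrays where the miRNA was not above background, and lines are means of 4 arrays. The sides do not overlap for 11 of the 16, which were chosen for a difference between these sides. miR-200c-3p is high on the DOCA-EVs arrays alone among the DOCA-salt arrays.

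Without either SHAM array no miRNA passed in limma, although 33 were at an unadjusted p under 0.05 without SHAM replicate 1 and 34 without SHAM replicate 2. Without both arrays with the weak control 7 passed, 5 higher and 2 lower, of which 6 were among the 16: miR-155-5p, miR-132-3p, miR-221-3p, miR-34a-5p, miR-375-3p and miR-192-5p. Without DOCA-EVs replicate 1 there were 26 calls, without UNX replicate 1 there were 5, and without UNX replicate 2 or DOCA replicate 2 there were 6 each.

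**Figure D2:**
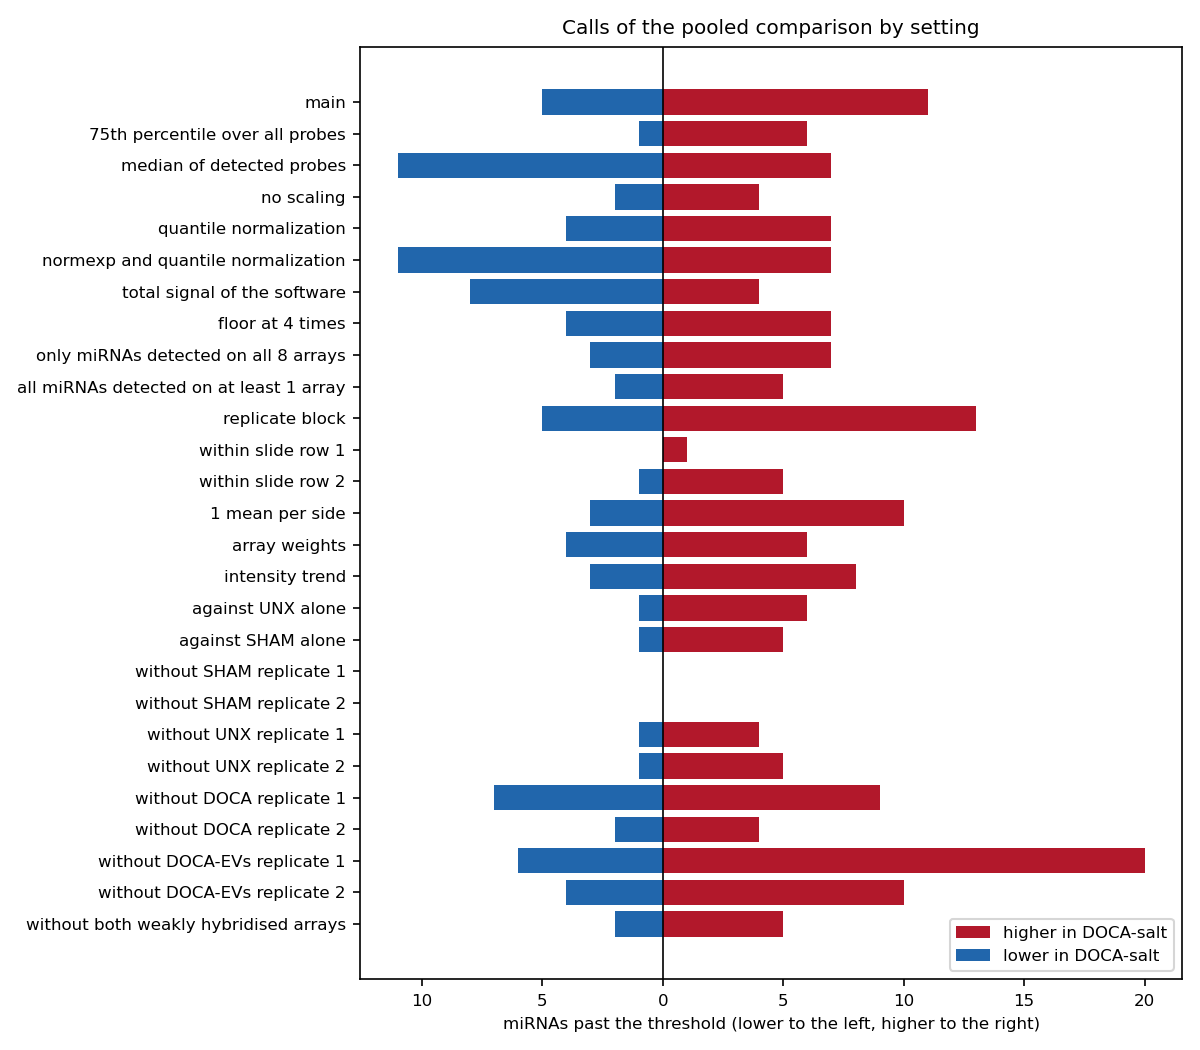
Number of miRNAs past the threshold in the pooled comparison under each setting, with those higher in DOCA-salt to the right of 0 and those lower to the left. Main stands for the values reported, with 11 higher and 5 lower, and the counts run from 0 without either SHAM array to 26 without DOCA-EVs replicate 1.

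Among miRNAs of inflammation, miR-155-5p, which activated macrophages and lymphocytes make from the Mir155hg transcript, rose by 1.21 ± 0.12 (adjusted p = 0.0089). Its level was 5.25 and 5.31 in DOCA and 4.90 and 5.29 in DOCA-EVs, against 4.04 and 4.08 in SHAM and 3.84 and 3.96 in UNX. Every DOCA-salt array was above every standard-diet array, and the DOCA-EVs array of replicate 1 was the lowest of the DOCA-salt side. It was above background on all 4 DOCA-salt arrays and on 1 standard-diet array, which gives at least 1.93-fold. In RefSeq on GRCr8 its mature sequence lies at chr11:37261117-37261139 on the plus strand, inside Mir155hg, a long noncoding RNA gene.

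miR-146b-5p, which NF-κB induces and which represses adaptors of Toll-like receptor signalling, rose by 1.76 ± 0.33 (adjusted p = 0.041). Its level was 6.21 and 6.37 in DOCA and 4.56 and 6.05 in DOCA-EVs, against 4.15 and 4.43 in SHAM and 3.55 and 4.04 in UNX. The sides did not overlap, but DOCA-EVs replicate 1 was close to the higher SHAM array. It was above background on the 4 DOCA-salt arrays and on no standard-diet array, at least 2.91-fold higher, and it was tested through its DOCA-salt detection alone. miR-146a-5p shares the first 17 bases with it and is made from another chromosome. Its level was 8.65 and 8.63 in DOCA and 8.56 and 8.73 in DOCA-EVs, against 8.29 and 8.26 in SHAM and 8.55 and 8.51 in UNX (0.24 ± 0.09, adjusted p = 0.17). The DOCA-salt arrays were all above the others, with the UNX arrays close below the lowest of them, and the miRNA did not pass the threshold. A cross-reaction of the probes of so similar a pair was not tested.

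The inflammation and leukocyte list had 7 of its 8 members tested. All 7 had positive values (6 after median scaling, no scaling or quantile normalization), 2 passed (both higher) and 5 did not overlap. miR-146b-5p, tested through DOCA-salt detection alone, is among the 2 and among the 5. Over all 242, 118 were positive, 4.55% passed as higher and 10.3% lay wholly above. The median log2 fold change of the list was 0.59 (0.17 to 0.60 above the median of all tested miRNAs over 6 scalings). Without both arrays with the weak control 6 of the 7 were positive and the median was 0.39, which is 0.31 above that of all. With the miRNAs detected on all 8 arrays, which leaves out miR-146b-5p, 6 of 6 were positive with a median of 0.49 and 1 call. miR-142-3p, made throughout blood-cell lineages, was 7.20 and 6.71 in DOCA and 5.85 and 6.53 in DOCA-EVs, against 5.47 and 5.60 in SHAM and 6.07 and 5.92 in UNX. The DOCA arrays were highest, DOCA-EVs replicate 1 lay between the UNX and SHAM levels, and the value of 0.81 ± 0.19 did not pass (adjusted p = 0.064). miR-223-3p, abundant in myeloid cells, had 0.59 ± 0.15 (adjusted p = 0.076). The lowest value of the list was that of miR-342-3p, at 0.07 ± 0.13. The summed signal of 6 leukocyte markers, 4 of them above background on all arrays and miR-142-5p on none, ran from 450 to 672 in DOCA-salt and from 395 to 422 on standard diet. In whole cortex a different number of cells of a type and a different RNA content per cell cannot be told apart. The part of leukocytes in these values was not tested.

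Among miRNAs of fibrosis and injury, miR-132-3p, which CREB induces and which is transcribed together with miR-212, rose by 1.63 ± 0.19 (adjusted p = 0.0094). Its level was 4.67 and 4.55 in DOCA and 3.91 and 4.62 in DOCA-EVs, against 3.03 and 3.07 in SHAM and 2.36 and 2.80 in UNX. All DOCA-salt arrays were higher, but only 1 array of each DOCA-salt group and no standard-diet array was above background. The reduced fold is small, at 1.15, and is no bound. UNX replicate 1 was at the floor for its probes, and the call was lost with a floor 4 times as high. miR-132-3p too was tested through its DOCA-salt detection alone. The mature sequences of miR-212-3p and miR-132-3p start with the same 9 bases and lie on the plus strand of chromosome 10, at chr10:60521811-60521832 and chr10:60522091-60522112. miR-212-3p was above background on all arrays, at 6.73 and 5.71 in DOCA and 5.63 and 6.02 in DOCA-EVs, against 5.49 and 5.43 in SHAM and 5.27 and 5.99 in UNX (0.48 ± 0.28, adjusted p = 0.37). Its sides overlapped, and DOCA replicate 1 stood above the others.

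miR-34a-5p, a direct transcriptional target of p53 that represses cell-cycle genes, rose 1.55-fold and had the smallest standard error of the 16 (0.63 ± 0.08, adjusted p = 0.011). Its level was 7.53 and 7.65 in DOCA and 7.50 and 7.49 in DOCA-EVs, against 6.85 and 6.89 in SHAM and 6.91 and 6.98 in UNX. It was above background on all 8 arrays, and the 2 groups of a side lay close together. miR-34b-5p carries the same seed, is made from chromosome 8 and was tested through its DOCA-salt detection alone. It was 4.05 and 5.18 in DOCA and 3.61 and 5.04 in DOCA-EVs, against 3.61 and 3.70 in SHAM and 3.23 and 3.39 in UNX (0.99 ± 0.38, adjusted p = 0.19). Both DOCA-salt arrays of replicate 2 were high and above background, while no other array was. These are the arrays with the weak control, and the value without them was 0.35.

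Of the miR-21 hairpin, a common profibrotic miRNA gene in kidney studies, the 3p arm rose by 0.82 ± 0.17 (adjusted p = 0.048), at least 1.76-fold. Its level was 5.92 and 6.01 in DOCA and 5.23 and 5.92 in DOCA-EVs, against 5.37 and 5.10 in SHAM and 4.72 and 4.63 in UNX. DOCA-EVs replicate 1 lay between the SHAM arrays, and with the replicate number as a block the call was lost (adjusted p = 0.051). The dominant 5p arm, miR-21-5p, was 12.14 and 12.23 in DOCA and 10.80 and 11.91 in DOCA-EVs, against 10.91 and 11.00 in SHAM and 11.03 and 11.17 in UNX. DOCA-EVs replicate 1 was here the lowest of all 8 arrays, and the pooled value of 0.74 ± 0.24 did not pass (adjusted p = 0.13). It passed without DOCA-EVs replicate 1 and without DOCA-EVs replicate 2.

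The fibrosis and injury list had 9 of 11 members tested. All 9 had positive values (8 with no scaling), 3 passed (all higher) and 4 did not overlap. miR-132-3p, tested through DOCA-salt detection alone, is among the 3 and among the 4. Over all 242, 118 were positive, 4.55% passed as higher and 10.3% lay wholly above. The median of the list was 0.63 (0.17 to 0.64 above the median of all tested miRNAs over the scalings). It was 0.54 with miR-21-3p at its bound and miR-132-3p at its reduced fold. Without both arrays with the weak control 8 of the 9 were positive and the median was 0.44, which is 0.36 above that of all. With the miRNAs detected on all 8 arrays, which leaves out miR-132-3p, 8 of 8 were positive with a median of 0.585 and 2 calls. miR-214-3p and miR-199a-3p, which come from 1 transcript and are abundant in mesenchymal cells, had 0.77 ± 0.32 and 0.54 ± 0.22 (adjusted p = 0.21 for both). Their levels were highest on replicate 2 of DOCA and of DOCA-EVs, as for miR-34b-5p.

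Among vascular miRNAs, both members of the X-linked miR-221/222 cluster rose. miR-221-3p, which represses the cell-cycle inhibitor p27, was 7.10 and 7.05 in DOCA and 7.57 and 7.25 in DOCA-EVs, against 6.25 and 6.23 in SHAM and 6.51 and 6.24 in UNX. This is a 1.92-fold difference with no overlap, measured above background on all arrays (0.94 ± 0.11, adjusted p = 0.0094). miR-222-3p was 4.81 and 4.60 in DOCA and 5.09 and 5.07 in DOCA-EVs, against 3.40 and 3.90 in SHAM and 3.94 and 3.43 in UNX (1.23 ± 0.17, adjusted p = 0.012). The sides did not overlap, but only the DOCA-EVs arrays were above background. The DOCA arrays were not, so 1.57 is a reduced fold and no bound. miR-222-3p was tested through its DOCA-salt detection alone. Their mature sequences lie 543 bases apart on the plus strand, miR-222-3p at chrX:6022682-6022702 and miR-221-3p at chrX:6023246-6023268. They share their first 8 bases.

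The other 3 tested vascular miRNAs had negative values. miR-143-3p of smooth muscle was 9.71 and 9.72 in DOCA and 9.31 and 9.67 in DOCA-EVs, against 9.94 and 9.95 in SHAM and 9.88 and 9.85 in UNX (-0.30 ± 0.11, adjusted p = 0.16). The sides did not overlap and the value did not pass. miR-145-5p had -0.22 ± 0.10 (adjusted p = 0.25) and endothelial miR-126a-3p had -0.13 ± 0.11 (adjusted p = 0.61). The list thus had 5 of 8 members tested, 2 higher calls, no lower call and a median of -0.13. Of the 2 calls, miR-222-3p was tested through DOCA-salt detection alone. With the miRNAs detected on all 8 arrays, which leaves out miR-222-3p, 1 of 4 was positive with a median of -0.17 and 1 call. Over all 242, 4.55% were called higher and 2.07% lower. The summed signal of miR-143-3p and miR-145-5p was 714 to 934 in DOCA-salt and 1010 to 1100 on standard diet, and that of the endothelial markers 1140 to 1470 in DOCA-salt and 1330 to 1470 on standard diet.

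miR-3584-5p had the largest fold of the called miRNAs, 8.96-fold (3.16 ± 0.61, adjusted p = 0.042), and the largest standard error. Its level was 10.67 and 10.71 in DOCA and 10.00 and 7.88 in DOCA-EVs, against 6.35 and 6.19 in SHAM and 5.96 and 8.11 in UNX. UNX replicate 2 exceeded DOCA-EVs replicate 2, so the sides overlapped, and the value was 4.18 within slide row 1 and 2.14 within row 2. At 18 bases with 72.2% G or C it differs in make-up from the tested miRNAs, whose medians were 22 bases and 47.8%. It lies inside the coding gene Itprip on chromosome 1. miR-1949, inside Matr3 on chromosome 18, was 7.97 and 8.42 in DOCA and 8.02 and 8.39 in DOCA-EVs, against 7.61 and 7.58 in SHAM and 7.21 and 7.52 in UNX. Its 1.65-fold rise had no overlap and stood at the threshold (0.72 ± 0.15, adjusted p = 0.0497).

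**Figure D3:**
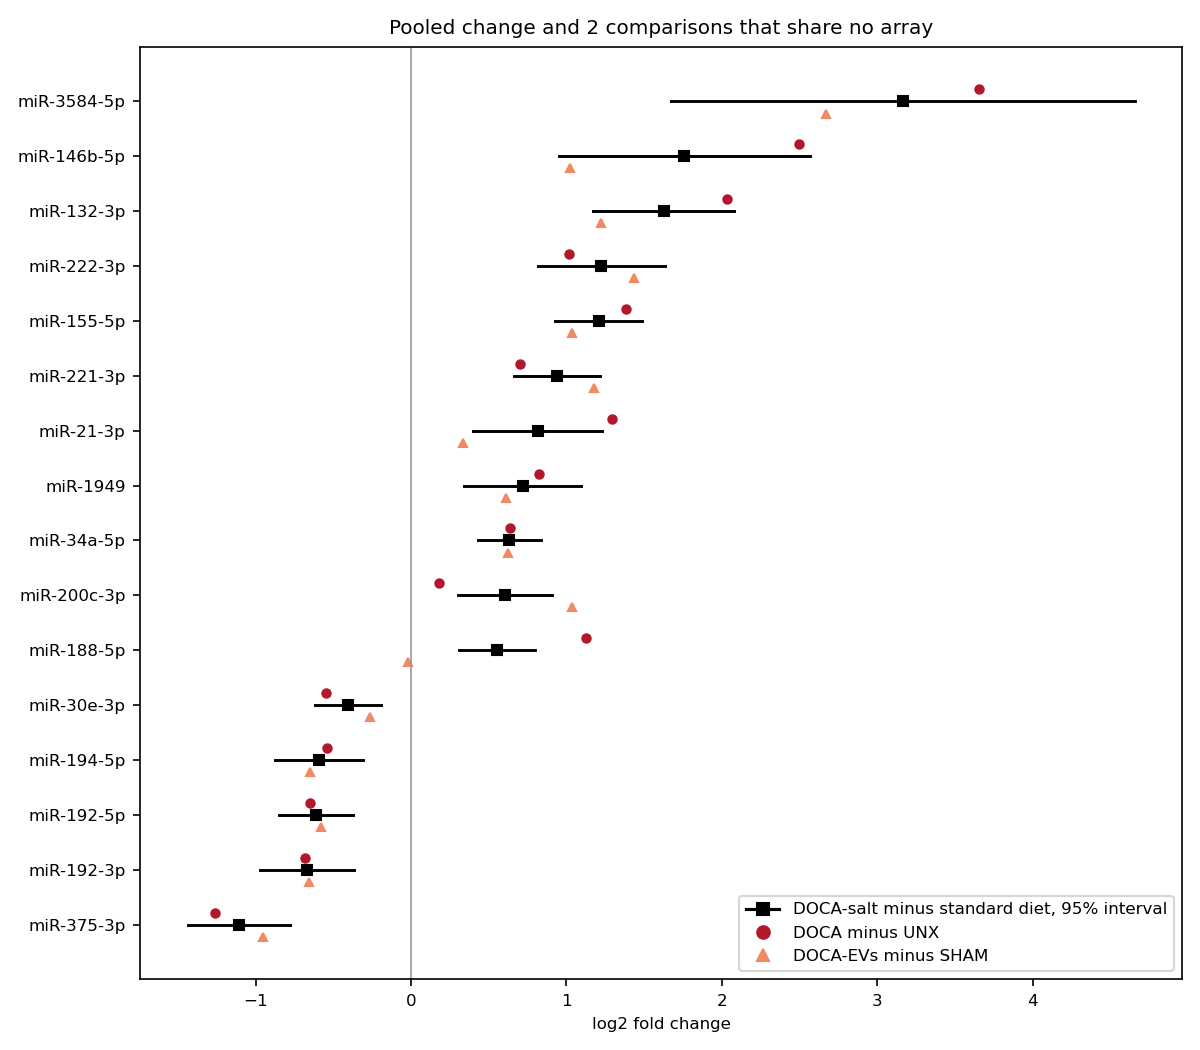
Pooled log2 fold change with its 95% interval (squares and lines) of the 16 called miRNAs, with DOCA minus UNX (circles) and DOCA-EVs minus SHAM (triangles), which have no array in common. The pooled value is the mean of the circle and the triangle, so these are no separate support for the calls. miR-3584-5p is at 3.16 and miR-375-3p at -1.11, and miR-188-5p has a DOCA-EVs minus SHAM value of -0.02.

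Among tubule-enriched miRNAs, miR-192-5p, miR-192-3p and miR-194-5p fell in DOCA-salt. miR-192-5p, an HNF1-dependent miRNA of kidney and gut epithelium, was 9.52 and 9.77 in DOCA and 9.41 and 9.55 in DOCA-EVs, against 10.03 and 10.08 in SHAM and 10.27 and 10.31 in UNX. It was 1.53-fold lower with no overlap (-0.61 ± 0.10, adjusted p = 0.024). miR-194-5p was 9.13 and 9.05 in DOCA and 8.72 and 9.11 in DOCA-EVs, against 9.57 and 9.56 in SHAM and 9.54 and 9.72 in UNX. It was 1.51-fold lower, again with no overlap (-0.59 ± 0.12, adjusted p = 0.042). miR-192-3p, the other arm of the miR-192 hairpin, was 4.01 and 3.59 in DOCA and 4.05 and 3.97 in DOCA-EVs, against 4.63 and 4.71 in SHAM and 4.38 and 4.58 in UNX. It was above background on no DOCA-salt array and on 3 standard-diet arrays, and was lower by a reduced fold of 1.25 (-0.67 ± 0.12, adjusted p = 0.041).

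On chromosome 1 of GRCr8 miR-194-5p (chr1:212994038-212994059) and miR-192-5p (chr1:212994232-212994252) lie 172 bases apart on the plus strand. miR-194-5p has a second gene on chromosome 13, inside Iars2, and the array does not separate the 2 sources.

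The tubule-enriched list had 7 of 10 members tested. All 7 had negative values, 3 passed (all lower) and 3 did not overlap. Over all 242, 124 were negative, 2.07% passed as lower and 4.13% lay wholly below. The median of the list was -0.28 (0.12 to 0.29 below the median of all tested miRNAs over the scalings). It had 0 calls after scaling to the 75th percentile over all probes. miR-204-5p, enriched in tubular epithelium, had -0.28 ± 0.12 (adjusted p = 0.22), and miR-196a-5p was nearest 0 at -0.07 ± 0.12. The summed signal of the 7 kidney tubule markers ran from 7070 to 8910 in DOCA-salt and from 8480 to 9900 on standard diet, and these markers include miR-192-5p and miR-194-5p.

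In the miR-30 family, abundant in kidney epithelium, 10 of 11 members were tested. Of these, 8 had negative values (9 after median scaling or no scaling) and the median was -0.20. The lowest, miR-30c-1-3p (-0.45 ± 0.18), was tested through standard-diet groups alone. With the miRNAs detected on all 8 arrays, which leaves it out, 2 of 9 were positive. The 1 call of the family became 4 with normexp and 0 with the 75th percentile over all probes. miR-30e-3p was the one that passed (-0.41 ± 0.09, adjusted p = 0.0497). It was 6.44 and 6.33 in DOCA and 6.66 and 6.52 in DOCA-EVs, against 6.88 and 6.84 in SHAM and 6.92 and 6.93 in UNX, 1.32-fold lower with no overlap. Its partner arm miR-30e-5p had -0.20 ± 0.15 (adjusted p = 0.54). miR-30d-5p, at 0.20 ± 0.13, and miR-30b-3p, at 0.03 ± 0.15, had positive values. In the miR-29 family, whose members repress collagen transcripts, all 4 tested of 6 members were negative and none passed, while 2 passed as lower with normexp and 1 after median scaling or with total signal. miR-29c-3p was 10.64 and 10.73 in DOCA and 10.80 and 10.92 in DOCA-EVs, against 11.06 and 10.92 in SHAM and 11.16 and 11.12 in UNX (-0.29 ± 0.09, adjusted p = 0.12). It passed under those 3 alternatives. The highest DOCA-salt array met the lowest standard-diet array. The median of the family was -0.10.

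**Figure D4:**
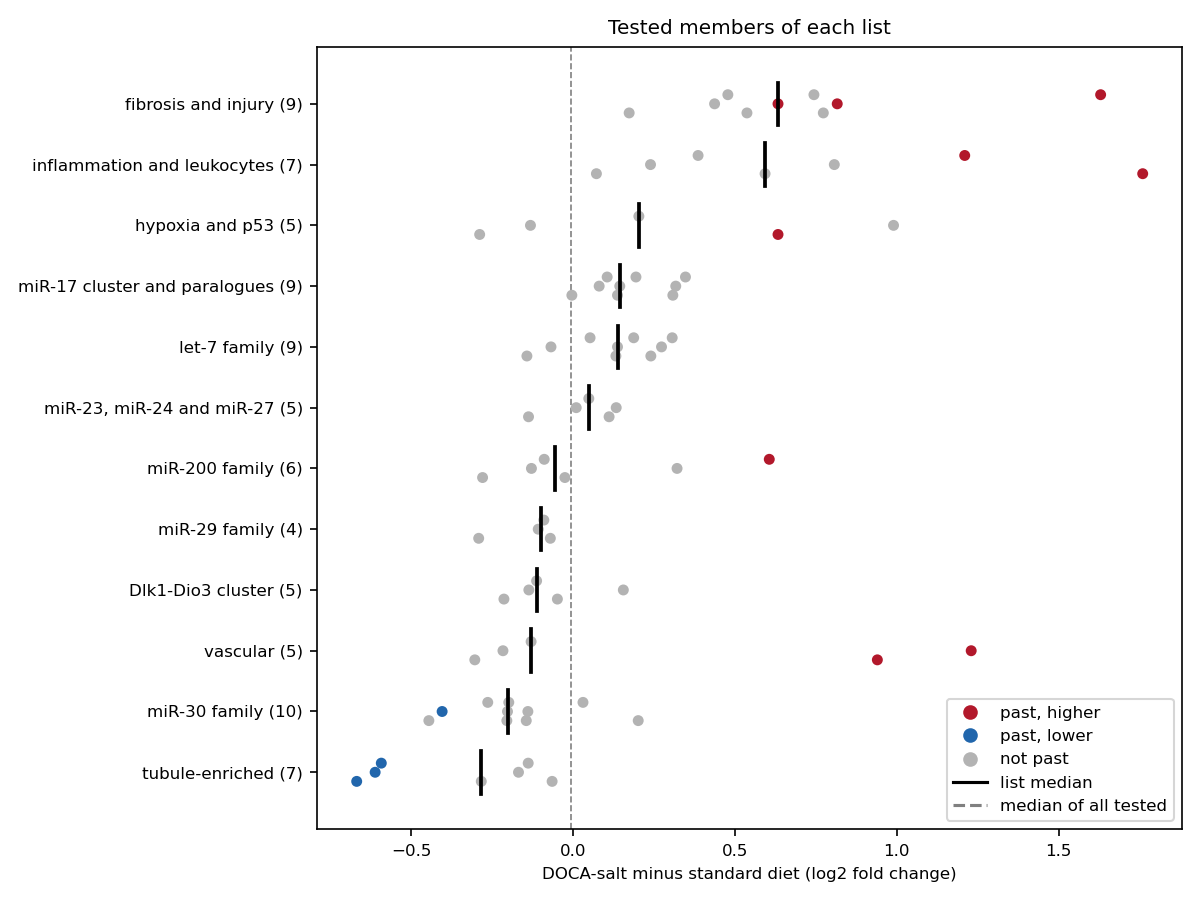
Pooled log2 fold change of each tested member of the 12 lists (points), with the list median (black bar) and the median of all tested miRNAs (dashed line). The number tested stands after each name. The fibrosis and inflammation lists lie wholly above 0, at medians of 0.63 and 0.59, and the tubule-enriched list wholly below 0, at a median of -0.28.

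For miR-200c-3p and miR-188-5p DOCA-EVs and DOCA lay apart at an unadjusted p under 0.05. miR-200c-3p, which keeps epithelial character by repressing Zeb factors, was 4.50 and 4.13 in DOCA and 5.40 and 5.46 in DOCA-EVs, against 4.50 and 4.30 in SHAM and 4.25 and 4.02 in UNX. The DOCA arrays lay within the standard-diet range, so the pooled value of 0.61 ± 0.12 (adjusted p = 0.047, reduced fold 1.45) rests on DOCA-EVs, which exceeded DOCA by 1.12 ± 0.18 (unadjusted p = 0.00062, adjusted p = 0.069). Its neighbours in the family did not pass: miR-141-3p of the same cluster had 0.32 ± 0.27, and miR-200a-3p, miR-200b-3p and miR-429 had -0.28 ± 0.14, -0.09 ± 0.09 and -0.13 ± 0.11. The family had 6 of 9 members tested, 1 higher call and a median of -0.06.

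miR-188-5p, inside the chloride transporter gene Clcn5 on the X chromosome, was 5.41 and 5.47 in DOCA and 4.79 and 4.80 in DOCA-EVs, against 4.83 and 4.80 in SHAM and 4.47 and 4.16 in UNX. Here the DOCA arrays were high and the DOCA-EVs arrays matched SHAM, with 0.55 ± 0.10 pooled (adjusted p = 0.041, at least 1.47-fold) and -0.64 ± 0.14 for DOCA-EVs minus DOCA (unadjusted p = 0.0036, adjusted p = 0.15). UNX minus SHAM was -0.50 ± 0.14 (unadjusted p = 0.012).

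miR-375-3p, known from endocrine cells, passed as lower in DOCA-salt (-1.11 ± 0.14, adjusted p = 0.0094), but it was above background on SHAM replicate 2 alone, so no fold is given. Its level was 2.36 and 2.36 in DOCA, which is the floor for its probes, and 3.73 and 3.19 in DOCA-EVs, against 4.38 and 4.46 in SHAM and 3.64 and 3.60 in UNX. All these values except that of SHAM replicate 2 are below background, so no difference between DOCA-EVs and DOCA is given. It was tested through its standard-diet detection alone.

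For 14 of the 16 called miRNAs both DOCA-salt group means lay beyond both standard-diet group means, in 9 of 11 higher and 5 of 5 lower ones. The exceptions were miR-200c-3p and miR-188-5p. The 16 were chosen on these same group means and the share over all 242 was not counted, so the 14 are a description. Among them, miR-132-3p, miR-222-3p, miR-146b-5p and miR-375-3p were tested through 1 side alone. Between DOCA-EVs and DOCA limma called 0 of 242 (0%), with 25 at an unadjusted p under 0.05, and between UNX and SHAM it called 0 (0%), with 16 at an unadjusted p under 0.05. The difference of DOCA-EVs from DOCA ran against the pooled change for 10 of the 16, miR-375-3p with its DOCA arrays at the floor among them, and with it for 6. For miR-34a-5p it was -0.09 ± 0.12, for miR-155-5p -0.18 ± 0.16 and for miR-1949 0.01 ± 0.22. With 2 arrays a group, a p that misses the threshold does not show that the groups were alike.

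By single groups, DOCA against UNX gave 4 calls (1.65%), all among the 16: miR-155-5p, miR-132-3p and miR-188-5p higher and miR-375-3p lower. DOCA against SHAM gave 2 (0.826%), miR-155-5p higher and miR-375-3p lower. The calls of miR-375-3p are a description, since it was tested through standard-diet detection alone and both its DOCA arrays were at the floor. DOCA-EVs against UNX gave 6 (2.48%), with miR-155-5p, miR-132-3p, miR-221-3p, miR-222-3p and miR-200c-3p higher and miR-192-5p lower. The calls of miR-132-3p and miR-222-3p are likewise a description, since both were tested through DOCA-salt detection alone. DOCA-EVs against SHAM gave 0 in limma (0%), with 32 at an unadjusted p under 0.05. These comparisons share groups with each other and with the pooled one, and the difference between them was tested only as DOCA-EVs against DOCA and UNX against SHAM.

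Against UNX alone, where every rat was nephrectomised, 7 miRNAs passed (2.89%): miR-155-5p, miR-132-3p, miR-221-3p, miR-34a-5p, miR-222-3p and miR-188-5p were higher and miR-192-5p was lower. Against SHAM alone 6 passed (2.48%), with miR-155-5p, miR-132-3p, miR-221-3p, miR-34a-5p and miR-222-3p higher and miR-375-3p lower. These comparisons share their DOCA-salt arrays. The 5 that passed in both had values against UNX of 1.29, 1.86, 0.87, 0.59 and 1.21 in that order, and against SHAM of 1.13, 1.39, 1.01, 0.67 and 1.24. Of these, miR-132-3p and miR-222-3p were tested through DOCA-salt detection alone. miR-375-3p, lower against SHAM alone, was tested through standard-diet detection alone, with both DOCA arrays at the floor. For miR-132-3p UNX replicate 1 was at the floor, which enters its value against UNX.

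DOCA minus UNX and DOCA-EVs minus SHAM share no array. Their signs matched for 135 of the 242 tested miRNAs, and the other pairing without a common array, DOCA minus SHAM and DOCA-EVs minus UNX, gave 134. The pooled value of a miRNA is the mean of both values of a pairing. The called miRNAs were thus chosen on these values, and likeness between them is a description, not separate support. In the first pairing miR-34a-5p had 0.64 ± 0.12 and 0.63 ± 0.12, miR-192-3p had -0.68 ± 0.18 and -0.66 ± 0.18, and miR-192-5p had -0.65 ± 0.14 and -0.58 ± 0.14. miR-146b-5p had 2.50 ± 0.47 and 1.02 ± 0.47.

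**Figure D5:**
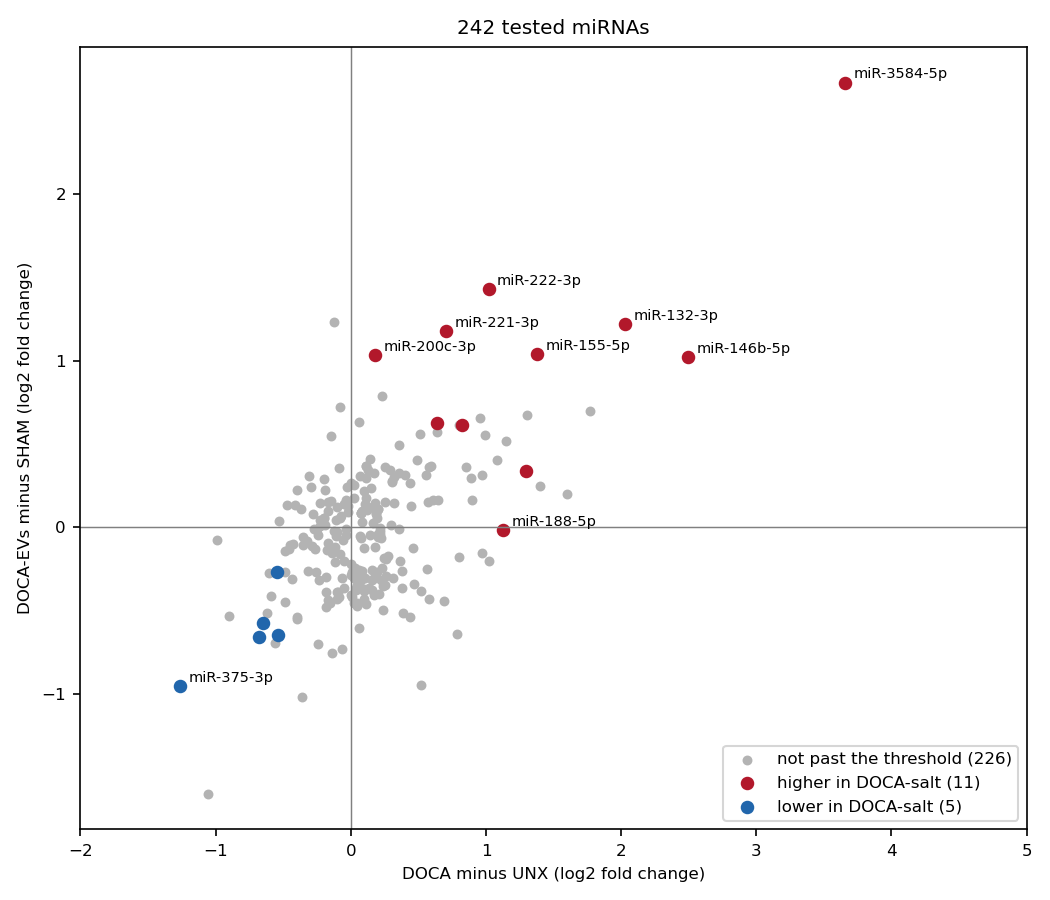
DOCA minus UNX (x axis) against DOCA-EVs minus SHAM (y axis), both log2 fold changes, for the 242 tested miRNAs. Red points are the 11 higher and blue points the 5 lower calls of the pooled comparison, which uses the same arrays. Signs match for 135 of the 242, and miR-188-5p lies near 0 on the y axis.

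The remaining lists held few calls. let-7, linked to differentiation, had all 9 members tested, 7 with positive values (3 to 7 over the scalings), none past the threshold, and a median of 0.14 that was between -0.06 and 0.18 over the scalings. The miR-17 cluster and its paralogues, which promote proliferation, had 9 of 12 tested, 8 positive (3 to 9 over the scalings), none past the threshold, and a median of 0.14 (-0.05 to 0.18 over the scalings). miR-92a-3p, at 0.32 ± 0.09 (adjusted p = 0.097), and miR-93-5p, at 0.31 ± 0.11 (adjusted p = 0.14), had the smallest p of that list. miR-23, miR-24 and miR-27 had 5 of 7 members tested, 4 positive (0 after median scaling, with no scaling or without both arrays with the weak control), none past the threshold, and a median of 0.05. The hypoxia and p53 list had 5 of 6 tested, 3 positive, miR-34a-5p as its 1 call, and a median of 0.20. Its member miR-34b-5p was tested through DOCA-salt groups alone and miR-34c-3p through standard-diet groups alone. With the miRNAs detected on all 8 arrays, 2 of 3 were positive. miR-210-3p, induced by hypoxia, was 5.62 and 5.49 in DOCA and 6.41 and 6.25 in DOCA-EVs, against 5.70 and 5.86 in SHAM and 5.66 and 5.73 in UNX (0.20 ± 0.10 pooled, adjusted p = 0.26). The DOCA-EVs arrays were highest and the DOCA arrays lowest, a difference of 0.78 ± 0.13 (adjusted p = 0.069). Of the 32 miRNAs of the imprinted Dlk1-Dio3 cluster 5 were tested, 2 of them through standard-diet groups alone, 4 with negative values (all 5 after median scaling or no scaling) and none past the threshold, at a median of -0.11. The direction turned against UNX alone, with all 5 positive and a median of 0.20, and 4 of 5 were positive without both arrays with the weak control (0.19) and without DOCA-EVs replicate 2 (0.11).

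Among the 218 tested miRNAs with a sequence, of 25 seed families with at least 2 members, 11 had positive values throughout, 7 negative values throughout and 7 both. The count of 11 depends on the scaling. Over the scalings the seed AAAGUGC had 1 to 5 of 5 members positive, ACAUUCA 2 to 4 of 4 and UCACAUU 0 to 2 of 2. The families with a called member stayed positive throughout, and the 7 negative ones stayed negative. Those with a called member were miR-221/222 (0.94 to 1.23), miR-132/212 (0.48 to 1.63), miR-146 (0.24 to 1.76) and miR-34 with the seed GGCAGUG (0.63 to 0.99). The upper end of each range is a miRNA tested through its DOCA-salt detection alone: miR-222-3p, miR-132-3p, miR-146b-5p and miR-34b-5p. These upper values are a description. miR-34b-5p had 0.35 without both arrays with the weak control. Members with no sequence here, among them miR-200b-3p, miR-429, miR-30b-5p and miR-30d-5p, are in no family count. The 5 tested members of the miR-15/16 family had 0.06 to 0.61, with 3 to 5 of them positive over the scalings and none called. The miR-26 pair (-0.38 and -0.16) was negative under all 6 scalings, with no call. Of 29 hairpins with both arms tested, 10 had both positive, 11 both negative and 8 opposite values. miR-192 was the 1 hairpin with both arms called. Sequences of the called higher miRNAs had a median of 50% G or C and those of the 4 lower ones 51.1%, against 47.8% over all 218.

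The members just inside the threshold were miR-21-3p, at an adjusted p of 0.048, and miR-1949 and miR-30e-3p, both at 0.0497. miR-6216 (0.82, adjusted p = 0.061), miR-320-3p (0.47, 0.063), miR-142-3p (0.81, 0.064) and miR-874-3p (0.40, 0.064) were just outside.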

How the data were processed

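The authors deposited 1 scanner file per array and a series table. Per the file headers, 1 slide of design 070154 was read with Agilent Feature Extraction 11.5.1.1 (protocol miRNA_1105_Oct12). Per the file headers, the signals are intensity values per spot after the software's background subtraction and detrending. Other deposited columns used are flags of detection, saturation and outlying spots. The series table held the same intensity (largest difference 0). No spot was saturated.

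Outlying spots were left out, spots averaged per probe, arrays divided by the 75th percentile over 271 probes well above background on all arrays, values floored at 2.57 (the mean SD of negative controls), probes summed per miRNA and log2 taken. A miRNA was above background on an array when 1 of its probes was so on at least 0.5 of its spots. limma 3.58.1 in R 4.3.3 fitted 1 mean per group, two-sided, with 4 residual and 2.18 prior degrees of freedom, and was tested on simulated data. The simulated arrays were independent and had the same spread in all groups. The test therefore does not cover the unequal spreads of the groups or the deviations shared by arrays of 1 replicate number. Precision is limited by having 8 arrays. The raw mean signal is not used here, and the normexp alternative used the median signal instead.

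The members, lists and naming rule were chosen with earlier results of these data known. The rule names up to 12 called miRNAs per direction (filled to 6), the 3 members of each list with the smallest p, 6 miRNAs whatever their p, partner arms, and tested miRNAs with a called one's seed. Others named as extremes or neighbours of a list were chosen after their values were seen. Arrays of 1 replicate number deviated together from their group means, with r across miRNAs of 0.245 to 0.557 in all 6 pairs of groups, so the numbers, which are slide rows, pair the arrays, and the block is an alternative.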

Additional observations from a re-analysis of the deposited data

Results flagged for a closer look

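In 102 sets of 4 arrays (each named miRNA on each side of the comparison), 1 array stood apart in 13, where its gap to the nearest other array exceeded Dixon's 95% critical share of their range. Chance flags about 1 in 20 such sets. Each side holds 2 groups, so a difference between groups enters the range.

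Of the 13, 4 were on DOCA-EVs replicate 1, 4 on UNX replicate 2, 2 on UNX replicate 1, 2 on DOCA replicate 1 and 1 on DOCA replicate 2. DOCA-EVs replicate 1 was the lowest DOCA-salt array for miR-155-5p (4.90, the others 5.25 to 5.31), miR-132-3p (3.91, the others 4.55 to 4.67), miR-21-3p (5.23, the others 5.92 to 6.01) and miR-143-3p (9.31, the others 9.67 to 9.72). DOCA replicate 1 was low for let-7b-5p (12.34, the others 12.74 to 12.79) and high for miR-339-3p (6.90, the others 6.40 to 6.47). DOCA replicate 2 was low for miR-192-3p (3.59, the others 3.97 to 4.05), below background on all 4.

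On the standard diet, UNX replicate 2 was high for miR-194-5p (9.72, the others 9.54 to 9.57), miR-30c-5p (10.66, the others 10.46 to 10.48) and let-7b-5p (12.51, the others 12.39 to 12.40), and low for miR-30c-1-3p (4.20, the others 4.83 to 4.93). UNX replicate 1 was high for miR-221-3p (6.51, the others 6.23 to 6.25) and low for miR-24-3p (10.56, the others 10.66 to 10.67).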

How the results depend on the processing

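Of the 16 called miRNAs, 0 changed direction under any alternative. miR-155-5p kept its call in 22 of 26 alternatives, miR-132-3p in 21 of 25 and miR-221-3p in 20 of 26. miR-200c-3p kept it in 3 of 25 and miR-21-3p in 4 of 26. The causes of lost calls were not tested. Signal limits the folds: 7 of the 16 were above background on all 8 arrays. The count of 16 became 7 with the 75th percentile over all probes, 6 with no scaling, 10 with the miRNAs detected on all 8 arrays (192 tested), 7 with all detected on at least 1 array (285 tested), 10 with array weights, 7 against UNX alone and 6 against SHAM alone. It was 1 within slide row 1 and 6 within row 2, which hold 4 arrays each. It was 0 (without either SHAM array) to 26 (without DOCA-EVs replicate 1) with 1 array left out, where the lone array of a group is assumed to vary like the others, and 7 without both weakly hybridised arrays, an alternative chosen after seeing the data. The replicate block gave 18 calls, 15 of them shared, and beside miR-21-3p it ended no other call. DOCA-EVs against DOCA had 4 calls after median scaling, 3 with quantile normalization, 5 with normexp, 4 with the higher floor and 0 to 3 with 1 array left out. UNX against SHAM had 3 with array weights. The median of all miRNAs was -0.17 after median scaling and -0.20 with no scaling, in place of -0.01.

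Of the 35 named miRNAs that did not pass, 15 changed direction somewhere. Values on the log2 scale follow. Against UNX alone they were 0.204 for miR-494-3p, 0.0966 for miR-329-3p, 0.143 for let-7b-3p, 0.12 for miR-34b-3p and 0.0887 for miR-210-5p. Against SHAM alone they were 0.0576 for miR-29b-3p, 0.00569 for miR-429, -0.177 for miR-770-3p and 0.0276 for miR-200b-3p. After median scaling they were -0.0376 for miR-27a-3p, -0.06 for miR-24-3p and -0.00708 for miR-770-3p. With no scaling they were -0.0642 for miR-27a-3p, -0.0865 for miR-24-3p, -0.00286 for miR-25-3p and -0.0158 for miR-770-3p. With the software's total signal they were -0.0954 for miR-27a-3p, -0.118 for miR-24-3p, -0.034 for miR-25-3p, -0.0255 for miR-210-3p and -0.00473 for miR-770-3p. miR-25-3p had -0.00985 with quantile normalization and -0.0116 with normexp, and miR-200b-5p had 0.0128 with the 75th percentile over all probes and 0.0247 with the higher floor. Within slide row 1 they were 0.0315 for miR-29c-5p, -0.0685 for miR-27a-3p, 0.0307 for let-7b-3p, 0.0496 for miR-34b-3p, 0.0207 for miR-210-5p and 0.0423 for miR-200b-5p, and within row 2 -0.0273 for miR-770-3p. Without both weakly hybridised arrays they were 0.0554 for miR-29c-5p, -0.0631 for miR-27a-3p, -0.0134 for miR-24-3p, 0.0591 for miR-329-3p, 0.145 for let-7b-3p, 0.186 for miR-34b-3p, 0.195 for miR-210-5p and 0.0823 for miR-200b-5p. With 1 array left out, the range was -0.243 to 0.027 for miR-29c-5p, -0.194 to 0.0129 for miR-29b-3p, -0.323 to 0.0496 for miR-329-3p, -0.333 to 0.135 for let-7b-3p, -0.357 to 0.0933 for miR-34b-3p, -0.371 to 0.0774 for miR-210-5p and -0.0995 to 0.0483 for miR-200b-5p.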
